A study of Homo sapiens with 6 samples.

Results

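The 33 genes described here encode integrin subunits, basement membrane proteins and adaptors that link integrins to actin, out of 61860 genes in the deposited count table. They were given as a list of gene symbols. Each symbol matched 1 Ensembl gene, and the 33 fall into 3 classes: 12 integrin subunits with their tetraspanin partner CD151 (13 genes), 7 laminin chains with NID1, HSPG2, AGRN and the laminin receptor DAG1 (11 genes), and 9 adaptors. RNA came from A498, an established line of clear cell kidney carcinoma cells, grown in MEM with serum. The labels give 2 groups of 3 libraries, PTPRZ-nc, the control, and PTPRZ-Si, in which PTPRZ1 was knocked down. PTPRZ1 is a receptor protein tyrosine phosphatase. The labels name a plasmid for the control and siRNA for the knockdown, so the reagent and the loss of the target cannot be told apart as sources of any difference below. Separate cultures are not stated for the 3 libraries of a group. The p-values reflect how these libraries vary, and part or all of that may be technical.

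Integrins are dimers of an alpha and a beta subunit that span the plasma membrane. Outside the cell they bind laminins, collagens, fibronectin and other matrix proteins, and the alpha subunit largely sets which. Inside, talin and kindlin bind the beta tail, and focal adhesion kinase, paxillin, tensins and the complex of ILK, PINCH and parvin assemble there. Laminins are trimers of an alpha, a beta and a gamma chain and, with nidogen, perlecan, agrin and type IV collagen, make up the basement membrane on which kidney tubule cells rest.

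Total counts per library ran from 13726908 to 21469746. PTPRZ1 had 0 counts in each of the 6 libraries, so its knockdown could not be read from these data and every direction rests on the group labels. Transcripts of kidney epithelium and its carcinoma were present: PAX8 ranged from 289 to 579 CPM (counts relative to the library's total, scaled by TMM), KRT8 from 1159 to 1321 CPM and VIM from 757 to 1220.3 CPM, while CA9 ranged from 2.30 to 3.58 CPM and NDUFA4L2 had 26 counts in all. Of the 7 tested markers of this list, PAX8 (log2 fold change 0.83), PAX2 (0.37), KRT8 (0.13) and KRT18 (0.18) were higher in the knockdown, VIM (-0.58) and ANGPTL4 (-1.06) were lower, and CA9 did not pass (edgeR adjusted p = 0.508). The other cell types checked were at or near 0: CDH5, of endothelium, and PTPRC and CD3E, of leukocytes, had 0 counts, and of the fibroblast markers LUM had 0, COL3A1 2 and DCN 4 counts. The 6 fibroblast markers together came to 31.4 to 41.7 CPM in the controls and 21.6 to 23.8 CPM in the knockdown, nearly all of it COL1A1. The 5 endothelial markers summed to 1.23 to 1.75 CPM in the controls and 1.92 to 2.58 CPM in the knockdown, and the 5 leukocyte markers to at most 0.643 CPM. The part of these marker differences in the results below was not tested. In bulk RNA, fewer cells of a type and less RNA per cell cannot be told apart.

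All 33 genes had enough counts to be tested. Knockdown and control differed in 17 of them (51.5%) by edgeR's quasi-likelihood test with an adjusted p up to 0.05, against 27.4% of all 15476 genes tested. The median absolute log2 fold change was 0.155 for the 33 genes and 0.176 over all tested genes. The larger share called came without a larger median change. Neither this comparison nor the later ones with all tested genes were matched for level. When the fit kept only genes averaging 5 CPM or more, 4088 of 11014 were called, against 4243 of 15476. In that fit 8 of 11 integrin genes, 6 of 11 basement membrane genes and 3 of 9 adaptors were called. How much of the difference in share goes with level was not tested. Of the 17, 7 were higher in the knockdown, where 14% of all genes were, and 10 were lower, against 13.4%. By class, 5 of 13 integrin genes fell and 3 rose, 5 of 11 basement membrane genes fell and 1 rose, and 3 of 9 adaptors rose and 0 fell. Median log2 fold changes were -0.0044 for the integrin class, -0.08 for the basement membrane and 0.08 for the adaptors, and 0.0010 over all tested genes. No test compares the classes. Most changes were small: 2 of the 33, ITGA5 and LAMA4, were called and past 1.5-fold, as were 731 of all 15476 genes tested. The groups did not overlap in 21 of the 33, against 40.8% of all tested genes.

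**Figure D1:**
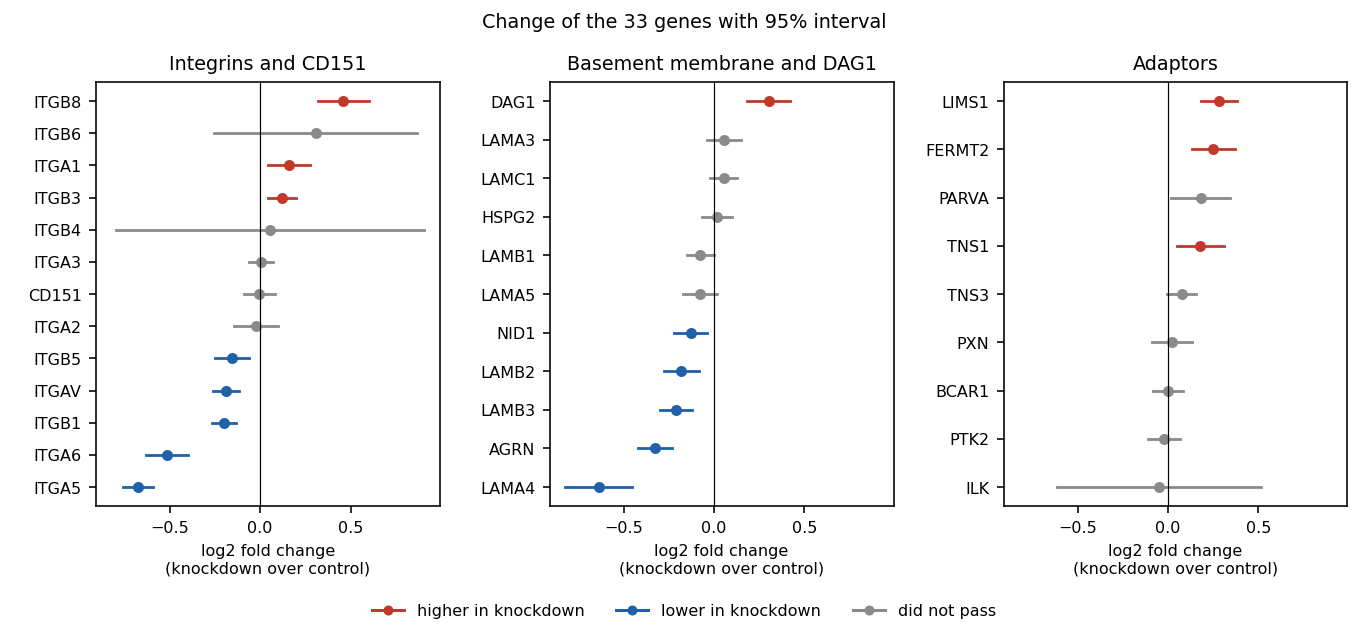
Log2 fold change of each of the 33 genes, knockdown over control, with its 95% interval from edgeR, in 3 panels by class. Colour marks the genes that were higher (7) or lower (10) with an adjusted p up to 0.05. ITGA5 lies farthest to the left and ITGB8 farthest to the right, and the intervals of ITGB4, ITGB6 and ILK are the widest.

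Levels were set side by side as CPM per kilobase of exon. ITGA3, the alpha subunit of a laminin receptor, was the most abundant of the 33 on this scale, at 335 ± 11.1 CPM per kb in the controls and 336 ± 7.91 in the knockdown (SD, n = 3 each). ITGB1, the beta subunit shared by most of the alpha subunits here, followed at 247 ± 3.13, and then AGRN at 191 ± 15.1 CPM per kb in the controls. AGRN and the next gene, ITGB3, did not overlap in the controls but did in the knockdown, where AGRN was at 152 ± 4.17 and ITGB3 at 151 ± 2.20 CPM per kb. Of the annotated exon bases of ITGB3, 51.6% are shared with AC068234.1 on the same strand, and pairs that touch both are left out. The level of ITGB3 may therefore be an underestimate, of unknown size, and its place in this order is uncertain. LAMB1, ITGB5, CD151, LAMC1 and LAMB3 formed a run between 74.6 and 84.6 CPM per kb in the controls, within which each overlapped the next. At the low end stood ITGB6 at 0.354 ± 0.0783 and ITGB4 at 0.133 ± 0.0195 CPM per kb. ILK, the integrin-linked kinase, was also low at 1.57 ± 0.145 CPM per kb, but 68.1% of its annotated exon bases are shared with TAF10 on the opposite strand, and read pairs that touch both genes are left out by the counting used. Its value may therefore be an underestimate, of unknown size. The same holds for ITGB6, with 20.6% of its exon bases shared with AC092153.1 on the same strand. It also holds for PXN (12.3%, PXN-AS1), HSPG2 (11.7%, LDLRAD2) and BCAR1 (8.59%, AC009078.3).

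**Figure D2:**
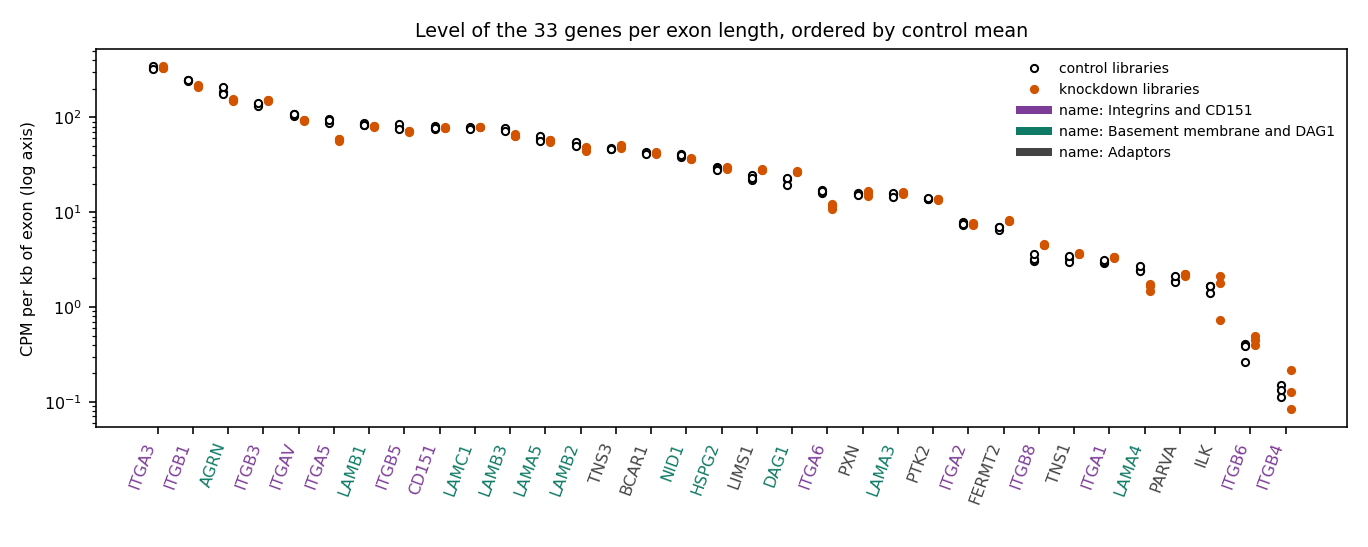
CPM per kb of exon (log axis) of the 33 genes in each control library (open circles) and each knockdown library (filled circles), ordered by the control mean. Name colours mark the class. Levels run from 335 CPM per kb for ITGA3 to 0.133 for ITGB4 in the controls.

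ITGA5 (ENSG00000161638, chromosome 12 from 54395261 to 54419460, GRCh38), the alpha subunit of the fibronectin receptor, had the greatest fall of the 33. It was at 724, 669.5 and 709 CPM in control libraries 1, 2 and 3 and at 444, 426 and 446 CPM in the knockdown libraries. All 3 knockdown libraries were below all 3 controls, and the log2 difference was -0.68 (SE 0.0396, edgeR adjusted p = 1.81e-09). ITGA6 (ENSG00000091409, chromosome 2 from 172427354 to 172506282), a laminin-binding alpha subunit that pairs with ITGB1 or ITGB4, fell as well, from 103, 112 and 109 CPM to 75.4, 71.0 and 80.1 CPM (log2 difference -0.52, SE 0.0559, edgeR adjusted p = 2.57e-06). ITGAV, the alpha subunit of the vitronectin receptors, which like ITGA5 binds ligands through an RGD sequence, was at 856, 888 and 884 CPM in the controls and 774, 769 and 762 CPM in the knockdown, and its fall was smaller (-0.19, SE 0.0337, edgeR adjusted p = 0.000437).

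None of the other alpha subunits passed as lower. ITGA3 was at 3261, 3402 and 3188 CPM in the controls and 3254, 3239 and 3380.2 CPM in the knockdown. The groups overlapped, and the 95% interval of its log2 fold change was -0.06 to 0.07 (edgeR adjusted p = 0.953). ITGA2, a collagen-binding subunit, also overlapped between the groups and did not pass, with an interval of -0.14 to 0.10 (edgeR adjusted p = 0.818). ITGA1, the other collagen-binding subunit, was at 54.2, 54.9 and 57.5 CPM in the controls and 62.5, 62.2 and 61.5 CPM in the knockdown and was called higher (0.16, SE 0.0555, edgeR adjusted p = 0.0416). That call was lost without control 1 (adjusted p = 0.136), control 2 (0.0563), or knockdown 1, 2 or 3 (0.124, 0.111 and 0.099), and with the replicate block (edgeR adjusted p = 0.0652).

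Among the beta subunits, ITGB1 was at 1473, 1478 and 1508 CPM in the controls and 1289.9, 1319.7 and 1267 CPM in the knockdown, with no overlap (-0.20, SE 0.0317, edgeR adjusted p = 0.000136). It is the only partner of ITGA1, ITGA2, ITGA3 and ITGA5. A processed copy, ITGB1P1, took up 5925 counts over the 6 libraries against 146783 for ITGB1, so some read pairs of ITGB1 may have been counted there or left out. The partners of ITGAV went both ways. ITGB8 (ENSG00000105855, chromosome 7 from 20330702 to 20415754), a subunit known for activating latent TGF-beta, had the greatest rise of the 33, from 46.1, 48.4 and 55.0 CPM to 67.8, 68.7 and 69.7 CPM (0.46, SE 0.0656, edgeR adjusted p = 4.84e-05). ITGB3 rose from 614, 584 and 629 CPM to 665, 652 and 671 CPM (0.12, SE 0.0376, edgeR adjusted p = 0.0228), a difference of 8.79% that did not pass without knockdown 1 (adjusted p = 0.103) or knockdown 3 (0.104). In the annotation, 51.6% of the exon bases of ITGB3 are shared with AC068234.1, a gene on the same strand that had 0 counts, and pairs that touch both genes are left out. ITGB5 fell from 503, 551 and 486 CPM to 467, 451 and 464 CPM (-0.16, SE 0.0445, edgeR adjusted p = 0.0148). Without knockdown 2 the fall of ITGB5 did not pass (adjusted p = 0.0622), nor did it without control 2 and knockdown 2 (log2 fold change -0.09, adjusted p = 0.0582).

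The epithelial subunits ITGB4 and ITGB6 were near the limit of these libraries. ITGB4, which anchors hemidesmosomes, had counts of 13, 14 and 17 in control and 21, 18 and 12 in knockdown libraries, and ITGB6 of 33, 17 and 34 against 33, 39 and 45. Their intervals, -0.80 to 0.91 and -0.25 to 0.87 on the log2 scale, are wider than most differences found here, which were not detectable at this depth. CD151, the tetraspanin that binds ITGA3 and ITGA6, overlapped between the groups, at 319, 296 and 306 CPM in the controls and 303, 305 and 311 CPM in the knockdown, with an interval of -0.09 to 0.08 (edgeR adjusted p = 0.954). Its exons overlap those of POLR2L on the opposite strand over 6.53% of their bases.

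**Figure D3:**
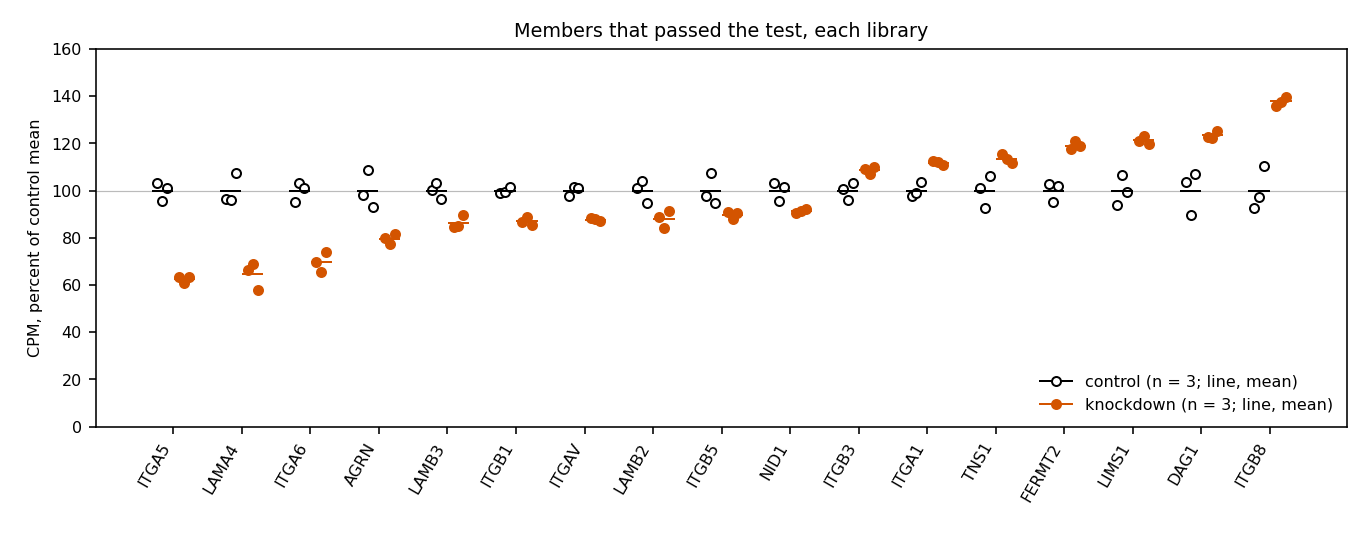
CPM of each library as percent of the control mean, for the 17 genes that passed, from the greatest fall to the greatest rise. Open circles are the 3 control libraries, filled circles the 3 knockdown libraries and lines the means. In none of the 17 do the groups overlap, and ITGA5, LAMA4 and ITGA6 lie lowest.

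As shares of the 6 alpha subunits per kb of exon, ITGA5 made up 16.5% ± 0.878 in the controls and 11.4% ± 0.183 in the knockdown, and ITGA3 59.7% ± 1.04 and 65.9% ± 0.489 (SD, n = 3 each). The groups did not overlap for either share. ITGA3 itself overlapped between the groups in CPM, so its larger share goes with the lower summed level of the others. ITGAV held 19.0% ± 0.405 and 18.4% ± 0.433, and there the groups overlapped. Of the 6 beta subunits, ITGB1 made up 52.7% ± 0.236 in the controls and 48.6% ± 0.877 in the knockdown, ITGB3 29.5% ± 0.994 and 34.1% ± 0.58, and ITGB8 0.701% ± 0.059 and 1.03% ± 0.0178, with no overlap in any of these. If the level of ITGB3 is an underestimate, as may be, its share is too low and the other beta shares are too high. Shares are given as a description, with no test.

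**Figure D4:**
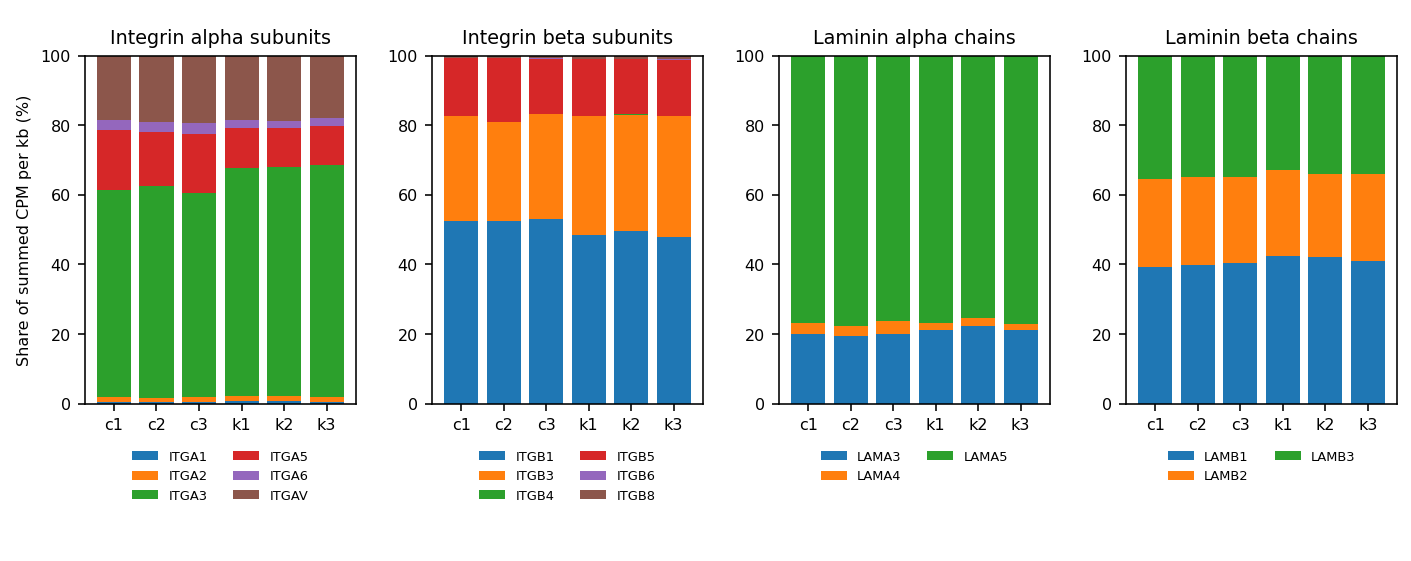
Share of each chain in the summed CPM per kb of its kind among the 33 genes, in control libraries (c1 to c3) and knockdown libraries (k1 to k3). LAMA1, outside the 33, is left out. ITGA5 shrinks from 16.5% to 11.4% of the alpha subunits, and LAMA5 stays near 77% of the laminin alpha chains in the controls.

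Of the laminin alpha chains, LAMA4 (ENSG00000112769, chromosome 6 from 112108760 to 112254939), typical of endothelial and mesenchymal basement membranes, fell most. It was at 28.3, 28.1 and 31.4 CPM in the controls and 19.4, 20.2 and 16.9 CPM in the knockdown (-0.64, SE 0.0875, edgeR adjusted p = 3.34e-05), each knockdown library below each control. LAMA4 made up 3.26% ± 0.398 of the alpha chains among the 33 genes per kb in the controls and 2.20% ± 0.23 in the knockdown. LAMA1, outside the 33, is not part of these shares. It was at 9.06 CPM per kb in the controls, against 2.53 for LAMA4. LAMA5, the main alpha chain of the adult tubule basement membrane and 77.0% ± 0.705 of the same alpha chains, without LAMA1, in the controls, was at 852, 918 and 799 CPM and 820.3, 784 and 827 CPM. It did not pass (-0.08, interval -0.17 to 0.02, edgeR adjusted p = 0.211), and its value rested on the controls. Without control 3 it was -0.13 and passed (adjusted p = 0.037), without control 2 it was -0.03 (0.572), and without control 2 and knockdown 2 it was -0.0025 (0.972). LAMA3, an alpha chain of epithelial laminin, did not pass either, with an interval of -0.04 to 0.15 (edgeR adjusted p = 0.387).

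The beta chains LAMB3 and LAMB2 both fell. LAMB3, a beta chain of epithelial laminin, was at 351, 361 and 338 CPM in the controls and 295, 298 and 314 CPM in the knockdown (-0.21, SE 0.0418, edgeR adjusted p = 0.00117). LAMB2, the beta chain of the glomerular basement membrane, was at 369.9, 379.8 and 346 CPM and 324, 307 and 334 CPM (-0.18, SE 0.0453, edgeR adjusted p = 0.00639), and without control 2 and knockdown 2 its log2 fold change was -0.12 (adjusted p = 0.0192). Over the 14 alternatives described below, each with its own test, the highest adjusted p of LAMB2 was 0.0446, close to the limit of 0.05. LAMB1, the most abundant beta chain per kb, was at 675, 712 and 678 CPM in the controls and 659, 644 and 658 CPM in the knockdown. The groups did not overlap, but LAMB1 did not pass (interval -0.15 to 0.00, edgeR adjusted p = 0.138). LAMC1, the gamma chain of most laminins, was at 644, 662 and 634 CPM and 672, 671 and 669 CPM and did not pass (edgeR adjusted p = 0.283).

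Of the proteins that join laminin to the rest of the basement membrane, AGRN (ENSG00000188157, chromosome 1 from 1020123 to 1056118), agrin, fell from 2014, 2234 and 1917 CPM to 1639, 1591 and 1680.2 CPM (-0.33, SE 0.0446, edgeR adjusted p = 3.04e-05). Control 2 was the highest of the 6 libraries for agrin, and the fall held without it (adjusted p = 4.77e-08). Under the 14 alternatives described below, the log2 fold change of agrin ran from -0.38 to -0.24. NID1, nidogen, which bridges laminin and type IV collagen, fell from 242, 224 and 238 CPM to 212, 215 and 216 CPM (-0.13, SE 0.0428, edgeR adjusted p = 0.0313). The call for nidogen was lost without control 1 or 3 (adjusted p = 0.129 and 0.0755), without knockdown 1, 2 or 3 (0.118, 0.0762 and 0.0772), and with the replicate block (edgeR adjusted p = 0.0517). HSPG2, perlecan, overlapped between the groups, with an interval of -0.07 to 0.10 (edgeR adjusted p = 0.813). DAG1 (ENSG00000173402, chromosome 3 from 49468703 to 49535618), dystroglycan, the laminin and agrin receptor that is no integrin, was the 1 gene of its class that rose, from 155, 134 and 159.6 CPM to 183, 182 and 187 CPM (0.30, SE 0.0559, edgeR adjusted p = 0.000626). Its lowest value was in control 2, without which it still passed (adjusted p = 0.000117).

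Among the adaptors, the rises were those of LIMS1, FERMT2 and TNS1. LIMS1 (ENSG00000169756, chromosome 2 from 108534355 to 108687246), which encodes PINCH, the partner of ILK, was at 169, 192 and 179 CPM in the controls and 218, 222 and 216 CPM in the knockdown (0.28, SE 0.0478, edgeR adjusted p = 0.00029). LIMS1 has near-identical copies, LIMS3 and LIMS4, with 7 and 16 counts over the 6 libraries, and read pairs placed in several of these genes were not counted. FERMT2 (ENSG00000073712, chromosome 14 from 52857268 to 52952435), a kindlin that binds beta tails and activates integrins, rose from 59.8, 55.2 and 59.3 CPM to 68.3, 70.4 and 69.0 CPM (0.25, SE 0.0555, edgeR adjusted p = 0.00261). For both genes all knockdown libraries were above all controls.

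TNS1, a tensin that ties beta tails to actin, was at 53.2, 48.7 and 55.9 CPM in the controls and 60.8, 59.6 and 58.8 CPM in the knockdown (0.18, SE 0.0618, edgeR adjusted p = 0.0396). This call did not hold without control 1 or 2 (adjusted p = 0.0813 and 0.113) or without knockdown 1, 2 or 3 (0.13, 0.0992 and 0.0874). TNS3, the more abundant tensin per kb, was at 541, 557 and 551 CPM and 583, 558 and 597 CPM and did not pass (0.08, edgeR adjusted p = 0.155), though it did without control 2 and knockdown 2 (adjusted p = 0.0103). PARVA, a parvin of the ILK complex, was at 24.3, 23.5 and 27.2 CPM and 27.5, 28.9 and 28.7 CPM and did not pass (0.18, edgeR adjusted p = 0.0968), but did without control 3 (adjusted p = 0.0409).

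Among the kinase and docking scaffolds, none of PTK2, PXN and BCAR1 passed. PTK2, focal adhesion kinase, was at 188, 191 and 195 CPM in the controls and 186, 189 and 189.7 CPM in the knockdown, an interval of -0.11 to 0.07 (edgeR adjusted p = 0.746). PXN, paxillin, the scaffold that the kinase phosphorylates, had an interval of -0.09 to 0.13 (edgeR adjusted p = 0.808), and BCAR1, the docking protein known as p130Cas, -0.08 to 0.08 (edgeR adjusted p = 0.993). None of these 3 intervals reaches the change of LIMS1, 0.28. ILK, the partner of LIMS1, had counts of 99, 67 and 108 in control and 106, 53 and 135 in knockdown libraries, and with this spread between the knockdown libraries its interval was -0.61 to 0.52 (edgeR adjusted p = 0.923).

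Genes of the same pathway outside the 33 were read in the same fit, from lists drawn up with earlier results of these data known. Of 14 other integrin subunits 9 could be tested, of which 1 rose and 0 fell (11.1%, against 27.4% of all genes). That was ITGAX, a subunit of leukocyte integrins, at 6.31, 5.48 and 5.65 CPM in the controls and 11.0, 10.4 and 9.68 CPM in the knockdown (0.83, edgeR adjusted p = 0.000156), while the leukocyte marker PTPRC had 0 counts. ITGAM (-0.87, edgeR adjusted p = 0.0523), ITGA7 (0.34, edgeR adjusted p = 0.119) and ITGA4 (0.15, edgeR adjusted p = 0.151) did not pass, though ITGAM did without knockdown 3 (adjusted p = 0.0454). Among further partners of ITGB1, ITGA10 and ITGA11 did not pass, and ITGA8 and ITGA9 had 2 and 7 counts over the 6 libraries.

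Of 18 tested basement membrane genes outside the 33, 5 fell and 1 rose (33.3%, against 27.4% of all genes), with a median log2 fold change of -0.10. COL4A1, a type IV collagen chain, was at 543, 647 and 549 CPM in the controls and 397, 389.5 and 384 CPM in the knockdown (-0.57, edgeR adjusted p = 5.61e-07). COL7A1, the anchoring fibril collagen (-0.58, edgeR adjusted p = 1.17e-05), and the syndecans SDC4 (-0.52, edgeR adjusted p = 1.45e-06) and SDC1 (-0.28, edgeR adjusted p = 1.26e-05), which bind matrix through heparan sulfate, fell too.

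Of 37 tested adhesion proteins outside the 9 adaptors, 6 rose and 5 fell (29.7%), a share close to the 27.4% of all genes. FLNA, filamin, which crosslinks actin and binds beta tails, fell (-0.37, edgeR adjusted p = 3.71e-08), as did the caveolin CAV1 (-0.52, edgeR adjusted p = 2.47e-06). SRC, the kinase that acts with focal adhesion kinase, rose from 534, 545 and 534 CPM to 705, 696 and 727 CPM (0.40, edgeR adjusted p = 2.70e-07), and GIT1, which binds paxillin, from 66.8, 65.6 and 68.3 CPM to 96.5, 95.7 and 96.7 CPM (0.52, edgeR adjusted p = 4.99e-07).

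Of 17 tested integrin ligands that are not laminins, 8 fell and 2 rose (58.8%, against 27.4% of all genes), with a median of -0.18. CCN1 (-0.82, edgeR adjusted p = 6.14e-10), TGFBI (-0.55, edgeR adjusted p = 2.00e-09) and COL6A2 (-0.40, edgeR adjusted p = 4.38e-07) fell, and osteopontin, SPP1, a ligand of ITGAV dimers, rose (0.76, edgeR adjusted p = 7.54e-11). Of 5 tested tetraspanins, 2 fell and 0 rose (40%, against 27.4% of all genes). CD82 fell from 159, 189 and 153 CPM to 117, 113 and 121 CPM (-0.51, edgeR adjusted p = 1.55e-05) and CD81 fell less in size (-0.14, edgeR adjusted p = 0.0226). The call for CD81 was lost without knockdown 1 (adjusted p = 0.104), knockdown 2 (0.0746), or control 2 and knockdown 2 (0.0684). CD37 (0.44, edgeR adjusted p = 0.126) and TSPAN4 (-0.11, edgeR adjusted p = 0.156) did not pass, though TSPAN4 did without control 3 (adjusted p = 0.0161).

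**Figure D5:**
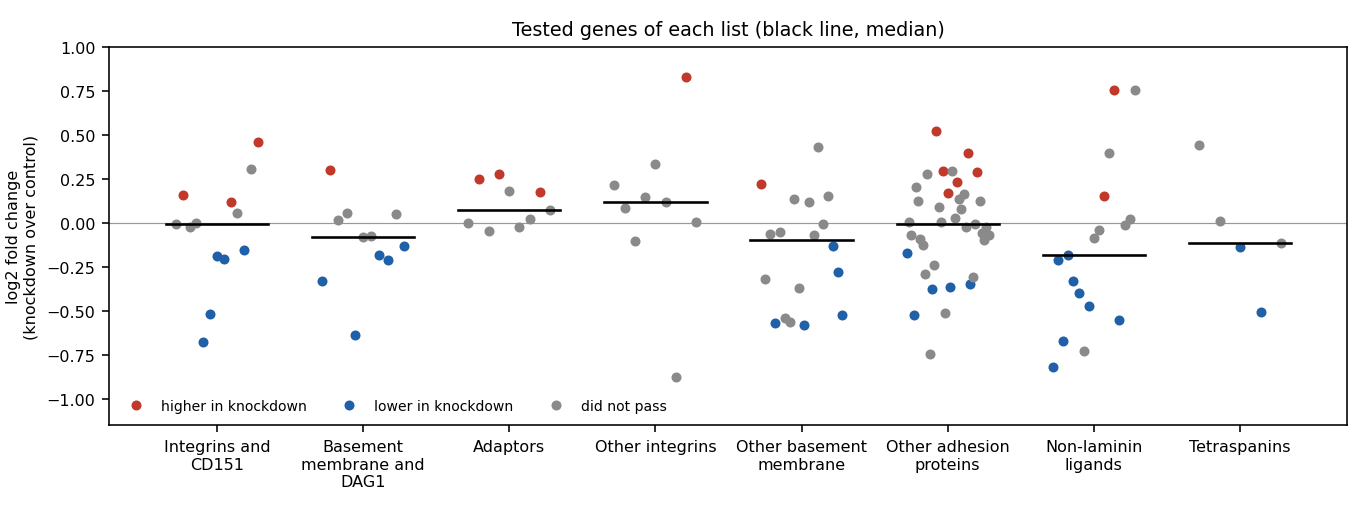
Log2 fold change of each tested gene of the 3 classes and of 5 further lists, coloured by whether it was higher, lower or did not pass. Black lines are medians, which lie between -0.18 for the ligands that are not laminins and 0.12 for the other integrins.

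The DNA just before the start sites was read for the 6 members with the largest changes among those that passed and had a window, to show what lies there. LAMA4 is 1 of them and is not printed, since too little of its window precedes annotated exons, and its window holds none of the motifs searched. RefSeq promoter windows on GRCh38.p14 matched 26 of the 33 genes with 48 start sites, and none for AGRN, CD151, ITGA3, ITGB3, ITGB4, PARVA and PTK2. Of each window only the stretch outside every annotated exon is given, 5′ to 3′ on the gene's strand, with matches to the searched motifs in capitals. The stretches are chr12:54419461-54419516 (minus strand) for ITGA5, chr2:172427086-172427335 (plus) for the first start of ITGA6, chr7:20330650-20330701 (plus) for ITGB8, chr3:49469882-49470131 (plus) for the first start of DAG1 and chr2:108534220-108534354 (plus) for the first start of LIMS1.
ITGA5 (lower): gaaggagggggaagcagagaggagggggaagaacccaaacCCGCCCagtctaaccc
ITGA6 (lower): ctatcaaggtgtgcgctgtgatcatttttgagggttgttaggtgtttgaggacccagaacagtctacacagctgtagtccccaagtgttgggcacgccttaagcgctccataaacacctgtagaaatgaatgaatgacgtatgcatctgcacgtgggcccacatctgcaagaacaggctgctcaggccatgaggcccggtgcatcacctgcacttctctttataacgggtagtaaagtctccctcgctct
ITGB8 (higher): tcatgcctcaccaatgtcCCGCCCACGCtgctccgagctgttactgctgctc
DAG1 (higher): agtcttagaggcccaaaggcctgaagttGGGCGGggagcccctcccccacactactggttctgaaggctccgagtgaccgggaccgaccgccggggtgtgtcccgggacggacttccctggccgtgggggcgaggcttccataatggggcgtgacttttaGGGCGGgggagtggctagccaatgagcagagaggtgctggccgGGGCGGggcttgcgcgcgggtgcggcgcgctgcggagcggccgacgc
LIMS1 (higher): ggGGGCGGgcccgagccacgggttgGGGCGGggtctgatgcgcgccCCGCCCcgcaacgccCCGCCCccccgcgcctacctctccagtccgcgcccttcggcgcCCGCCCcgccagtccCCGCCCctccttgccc

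The motifs searched, on both strands, were the GC box GGGCGG, the AP-1 site TGANTCA, the TEAD core GGAATG, the EGR site GCGNGGGCG, which can overlap a GC box, and the CArG box of SRF. LIMS1 holds 6 GC boxes in its 135 bases and DAG1 3 in its 250, and the 250 bases of ITGA6 hold none of the 5 motifs. This varied by start site: the second ITGA6 window, next to the first, holds 3 GC boxes, as does the second of DAG1, and the other 3 windows of LIMS1 hold 0. The stretches of ITGA5, which fell, and ITGB8, which rose, hold 1 GC box each in 56 and 52 bases. Since the stretches differ in length and in start site, genes that rose and genes that fell were not compared. In ITGB8 a GC box and an EGR site overlap in 1 run of capitals. Over the 250 bases before every RefSeq start site, a GC box occurs in 42.6% of 35116 windows and in 31 of the 48 of these genes (64.6%). The AP-1 site occurs in 6.57% of all windows and in 4 of the 48 (8.33%), and the TEAD core in 11.9% and in 5 (10.4%). The EGR site occurs in 8.41% of all windows and in 8 of the 48 (16.7%), and the CArG box in 1.16% and in 1 (2.08%). Windows of the same gene can overlap. A match is a description of these letters and shows neither binding nor a cause.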

How the data were processed

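RNA sequencing libraries of A498 cells, 3 labelled PTPRZ-nc and 3 labelled PTPRZ-Si, were compared. The authors deposited raw counts of read pairs per gene, made per the file headers with featureCounts 2.0.1 over exons of Ensembl release 107 (GRCh38), with no strand option and no option for pairs with several placements or several genes, which the program then leaves out by default. Neither the labels nor the headers give a version for the aligner. The submitters' processing notes name hg38.

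Symbols came from a gene name table and positions, exon overlaps and exon lengths from GENCODE 29 (GRCh38), whose gene models are older than those counted, so levels per kb are approximate. The test was that of edgeR 4.0.16 (R 4.3.3): filterByExpr left 15476 genes, scaling was by TMM, and glmQLFTest was 2-sided with Benjamini-Hochberg adjustment over these genes. Intervals are 95% intervals from the fit. On simulated counts the fit recovered 52% of the 50 genes with a fold of 1.25, and 72%, 90% and 100% of those with folds of 1.5, 2 and 4, with 9 false calls among 15038 unchanged genes.

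The members and lists were chosen with earlier results of these data known, so no list was tested as a set. All 33 members are named, and of each other list the 4 tested genes with the smallest p and partners of members. 1 gene chosen by this rule is not reported here. Alternatives were other scalings and filters, DESeq2 1.42.0, limma-voom 3.58.1, a replicate block and leaving out libraries. Libraries of the same group were compared by chi-square, which came to 2.15 to 5.71 for each degree of freedom, so none was taken for a copy. Control 2 stood farthest from its group, at 4.854 against control 1 and 5.71 against control 3. No other pair was above 3.275. Counts were tested in all 6 libraries.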

Additional observations from a re-analysis of the deposited data

How the results depend on the processing

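Of the 17 members called, 12 kept their call and direction under all 14 alternatives: ITGA5, ITGA6, ITGAV, ITGB1, ITGB8, LAMA4, LAMB2, LAMB3, AGRN, DAG1, LIMS1 and FERMT2. The other 5, ITGA1, ITGB3, ITGB5, NID1 and TNS1, lost it under at least 1. ITGA1 and TNS1 also lost it with no filter on low counts (edgeR adjusted p = 0.11 and 0.0588), in DESeq2 (adjusted p = 0.075 and 0.0586) and without control 2 and knockdown 2 (0.0862 and 0.148). Of the 16 members that did not pass, 13 passed under none, and LAMA5, PARVA and TNS3 passed under 1 each. Leaving out 1 library gave 6 to 8 calls in the integrin class, 5 or 6 in the basement membrane class and 2 to 4 among the adaptors, against 8, 6 and 3, and 3182 to 4425 over all genes, against 4243. It gave 1 or 2 calls for the other integrins, with 2 without knockdown 3, and 1 to 3 for the tetraspanins, with 1, CD82, without knockdown 1 or 2. The tetraspanins had 1 call, in place of 2, without control 2 and knockdown 2. The replicate block gave 4101 calls over all genes, and 7, 5 and 3 in the 3 classes. Same-numbered libraries deviated together only weakly (r = 0.0289, 0.0574 and -0.0402 over 11018 genes), so the numbers are not taken to pair the libraries. The file gives no exon lengths. Without any length, ITGA3 made up 64.6% in place of 59.7% of the alpha subunits in the controls, ITGB1 55.9% in place of 52.7% of the beta subunits and LAMB1 49.1% in place of 39.8% of the laminin beta chains. Depth limits ITGB4 and ITGB6, with 95 and 201 counts, to changes larger than most found here, and ILK is limited by the spread of its knockdown libraries.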

Other observations

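The 2 main type IV collagen chains, COL4A1 and COL4A2, which assemble into the same trimers, had unlike values. COL4A2 was at 991, 1051 and 947 CPM in the controls and 973, 934 and 975 CPM in the knockdown and did not pass (-0.05, edgeR adjusted p = 0.355), while COL4A1 fell (-0.57, edgeR adjusted p = 5.61e-07). For COL4A1 control 2 was the highest library, and the difference between the 2 genes was not tested. Both were singled out after their values were seen.

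LAMA1, a laminin alpha chain of early development outside the 33 genes, was at 143, 150.0 and 138 CPM in the controls and 149, 150.3 and 169 CPM in the knockdown and did not pass (0.12, edgeR adjusted p = 0.111), but did without control 2 (adjusted p = 0.027) and without control 2 and knockdown 2 (0.00495). It was also chosen after its values were seen. The tetraspanin CD9 is listed at 0 counts in all 6 libraries, and TLN1, talin, the adaptor that binds beta tails next to the kindlins, did not pass, with an interval of -0.08 to 0.07 (edgeR adjusted p = 0.939).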
